A study of Mus musculus with 20 samples.

Results

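Complexes II, III and V of the mitochondrial respiratory chain, with cytochrome c, were followed in mouse liver through the mRNAs of their nuclear-encoded subunits. Members were the protein-coding genes named Sdha, Sdhb, Sdhc, Sdhd, Cyc1 or Cycs, or with a symbol beginning Uqcr or Atp5, leaving out pseudogene names. This rule found 32 of 32400 genes, of which 4 belong to complex II, 9 to complex III and 18 to complex V, and 1 encodes cytochrome c. All but 1 had enough counts to be tested. The exception was a second gene model named Atp5o (ENSMUSG00000116933), which averaged 0.035 CPM (counts scaled to the same library total in each library) over all libraries, against 108 CPM for the tested Atp5o gene (ENSMUSG00000022956).

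Complex II, succinate dehydrogenase, oxidises succinate in the Krebs cycle and passes the electrons to ubiquinone in the inner mitochondrial membrane. Complex III moves electrons from reduced ubiquinone to cytochrome c and pumps protons as it does so, and cytochrome c carries them on to complex IV. Complex V, the ATP synthase, lets the protons flow back through a rotating ring and makes ATP. In liver this machinery takes up electrons from fatty acid oxidation and powers glucose and urea synthesis.

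Bulk liver mRNA of C57BL/6NTac mice was sequenced in 20 libraries of 3 groups. Chow controls (n = 5) ate standard chow and got no treatment. The HFHF control group (n = 7) ate a high-fat, high-fructose (HFHF) diet and received the vehicle PBS. The HFHF Flcn gRNA group (n = 8) ate the same diet and received a guide RNA against Flcn in an adeno-associated virus, AAV8. Flcn encodes folliculin, a regulator of nutrient signalling at the lysosome. The labels give no age, sex, nuclease or duration, and the controls carried no virus with another guide, so virus and guide cannot be told apart, nor can diet and vehicle injection in the comparison with chow. No label ties a library to its own animal, so the p-values rest on the scatter among these libraries, part of which may be technical.

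Totals ran from 13974379 to 19586576 counts per library. Flcn itself was at 22.2 ± 6.03 CPM in chow controls, 20.7 ± 2.98 in HFHF controls and 17.8 ± 2.40 in the gRNA group (mean ± SD), and the libraries of the gRNA and HFHF control groups overlapped (log2 difference -0.22, SE 0.12, adjusted p = 0.140). Between the gRNA and chow groups, whose libraries overlapped too, the log2 difference was -0.32 (SE 0.13), with an adjusted p of 0.04995, barely under 0.05. Where the guide cuts is not given in the labels, so a count over the whole gene does not show whether it was edited. Hepatocyte markers held 42949 to 101505 CPM in sum per library and none of the 10 was listed at 0, while 8 striated muscle markers summed to at most 2.19 CPM. Adjusted p-values are those of edgeR's quasi-likelihood test with Benjamini-Hochberg adjustment over 13667 genes, fold changes are on the log2 scale, and a call means an adjusted p under 0.05. Levels are CPM, scaled with TMM factors.

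Replicate 8 of the gRNA group stood apart from the other libraries. Mitochondrially encoded genes took 26.5% of its counts, against 12.4% to 17.5% in the other 19 libraries, and it was the highest of the 8 gRNA libraries for 25 of the 31 tested members. In the labels its title also carries another number in the second field than the 19 others do. Fold changes of the members and counts of the gene lists in the gRNA group are therefore given with and without this library. In bulk tissue, fewer cells of a type and less RNA per cell cannot be told apart.

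In the HFHF Flcn gRNA group the mRNAs of all 3 complexes were higher than in HFHF controls. Of the 31 members tested, 25 rose, 0 fell and 6 did not pass, where 19.6% of all genes tested were called higher and 19% lower. Without replicate 8, 23 members rose and 0 fell, where 18.6% of all genes were called higher and 20.1% lower. With all libraries the 31 differences were all positive. The median log2 difference of the members was 0.40, against 0.01 over all genes tested, and 0.30 without replicate 8. DESeq2 also called 25 members higher and 0 lower, among 5381 of 13666 genes called, 49.1% of them higher. With upper-quartile scaling Uqcr10, Atp5j2 and Atp5mpl lost their calls. Those of Uqcr10 and Atp5j2 were also lost with no count filter and in a fit of the 2 groups alone. For 14 members the whole gRNA group lay above the whole HFHF control group with no overlap, which held for 5.04% of all genes. The rise took in 4 of 4 genes of complex II, 7 of 9 of complex III, cytochrome c, and 13 of 17 of complex V. Without replicate 8 it took in 4 of 4, 6 of 9, cytochrome c and 12 of 17.

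Summed over its 4 genes, complex II was at 940, 909.7, 919.5, 836 and 812 CPM in the 5 chow libraries. It ran from 665 to 772 CPM in HFHF controls, with a median of 680.2, and from 842 to 1047 CPM in the gRNA group, with a median of 969. The 9 genes of complex III summed to 1083, 1058, 1047, 981 and 978 CPM in chow, to 919 to 1095 CPM in HFHF controls (median 963), and to 1078 to 1681 CPM in the gRNA group (median 1251). For complex V the sums were 3506, 3371, 3368, 3173 and 3123 CPM in chow, 2831 to 3257 CPM in HFHF controls (median 2950) and 3452 to 4882 CPM in the gRNA group (median 3969). The sums of complexes II and V in the gRNA group lay above all HFHF control libraries, while for complex III the lowest gRNA library lay below the highest HFHF control. Left to the other 7 gRNA libraries, the highest sums were 1034, 1318 and 4310 CPM for complexes II, III and V. For complex II alone the chow libraries lay above all HFHF controls. Among its 4 genes only Sdha was called lower with the diet and had no overlap between these groups. Its mean was 492.5 CPM in chow and 350 CPM in HFHF controls, where the sum of the complex averaged 884 and 700 CPM.

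**Figure D1:**
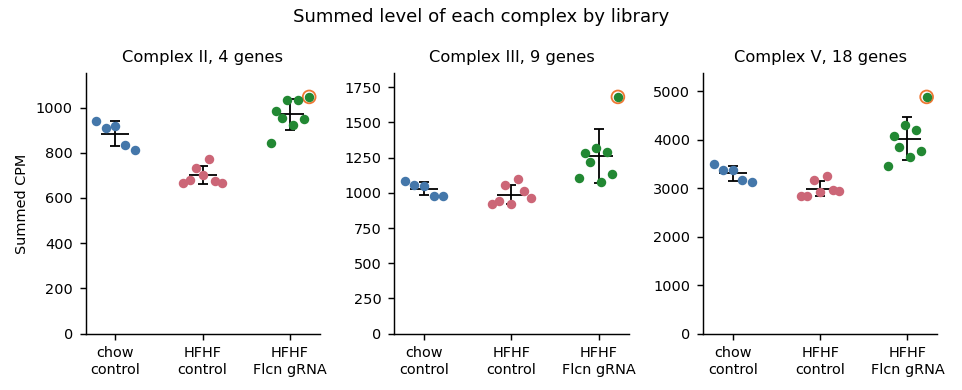
Summed CPM of the genes of complexes II, III and V (vertical axes, starting at 0) in each library of the 3 groups, with the mean and SD as bars and replicate 8 of the gRNA group ringed. For complex II the 5 chow libraries (812 to 940 CPM) lie above the 7 HFHF controls (665 to 772 CPM), which among its 4 genes held for Sdha alone. The gRNA libraries reach 842 to 1047 CPM for this complex. Replicate 8 is the highest point in each panel.

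**Figure D2:**
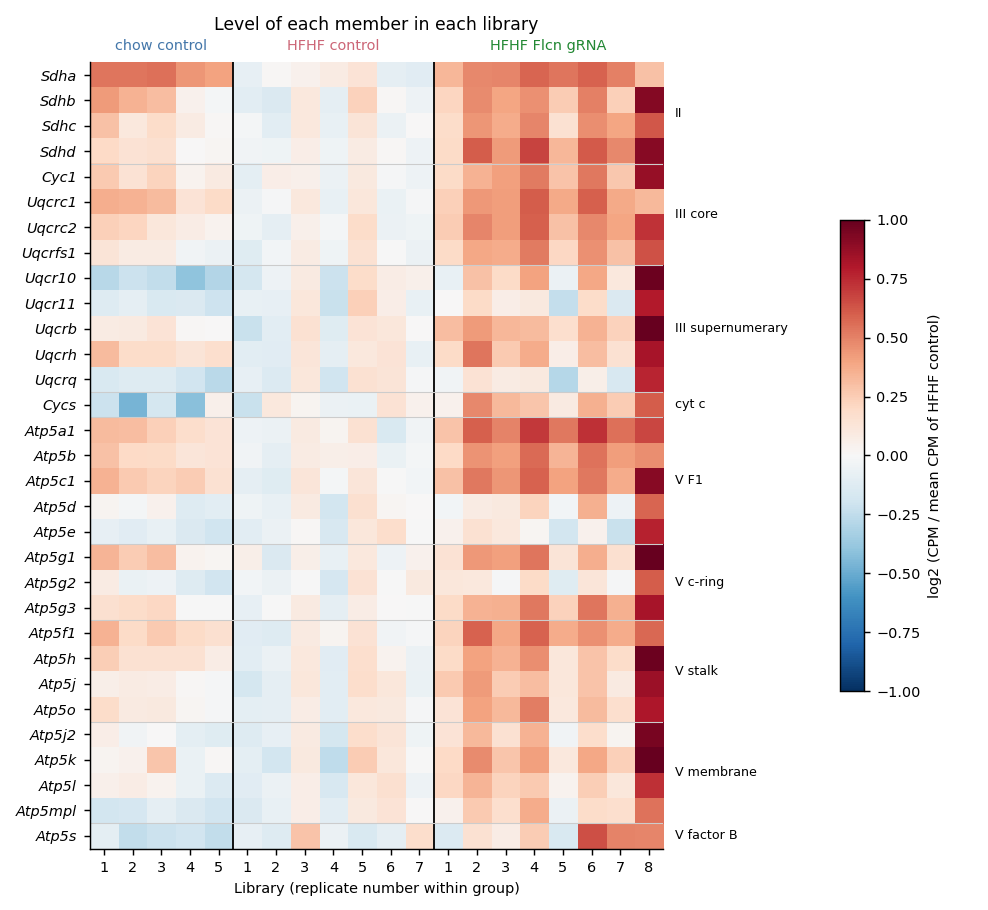
Level of each of the 31 tested members (rows, grouped by role) in each of the 20 libraries (columns), as log2 of CPM over the mean CPM of the HFHF controls, with colours saturating at 1 and -1. The gRNA columns are red for most rows, the long-transcript genes Sdha and Uqcrc1 are also red in chow, and replicate 8 of the gRNA group is the darkest column for the small subunits.

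In complex II all 4 genes rose in the gRNA group. Sdha encodes the flavoprotein that holds the succinate-binding site. It was at 506, 507, 512, 476 and 462 CPM in the chow libraries, at 323 to 384 (median 354) CPM in HFHF controls and at 429 to 527 (median 494) CPM in the gRNA group. HFHF controls lay below both other groups with no overlap, and the range of the chow libraries lay within that of the gRNA libraries. The gRNA difference from HFHF controls was 0.48 (SE 0.06, adjusted p = 2.05e-06), or 0.50 without replicate 8, and the diet difference was -0.49 (SE 0.07, adjusted p = 1.87e-06). Between the gRNA and chow groups the difference was -0.01 (SE 0.07, adjusted p = 0.883), with a 95% interval from -0.15 to 0.12.

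Sdhb carries the iron-sulfur clusters that lead electrons out of the flavoprotein. Its level was 160.4, 152, 149, 123 and 118 CPM in chow, 108 to 140.5 (median 116) CPM in HFHF controls and 139 to 226 (median 161) CPM in the gRNA group. The lowest gRNA library fell just under the highest HFHF control, and replicate 8 was the highest library of all. The gRNA difference was 0.45 (SE 0.10, adjusted p = 0.000715) and 0.36 without replicate 8. The diet difference of -0.23 (SE 0.11) did not pass, with an adjusted p of 0.0686.

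Sdhc and Sdhd encode the membrane anchors that bind ubiquinone. Sdhc was at 142, 125, 132, 122 and 117 CPM in chow, 108 to 127 (median 114) CPM in HFHF controls and 129 to 178 (median 155) CPM in the gRNA group. Sdhd was at 131, 126, 128, 114 and 116 CPM in chow, 110.2 to 120.4 (median 111) CPM in HFHF controls and 129.9 to 214 (median 166) CPM in the gRNA group. For both genes the gRNA libraries lay above all HFHF controls, and chow and HFHF control libraries overlapped. The gRNA difference was 0.40 (SE 0.07, adjusted p = 7.45e-05) for Sdhc and 0.55 (SE 0.08, adjusted p = 1.17e-05) for Sdhd, or 0.35 and 0.48 without replicate 8. Neither passed in the diet comparison, with differences of -0.14 and -0.11.

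All 4 core and catalytic genes of complex III rose in the gRNA group, each with no overlap with HFHF controls. Cyc1 encodes cytochrome c1, the heme protein that hands electrons to cytochrome c. Its libraries were at 95.02, 87.6, 92.9, 81.6 and 84.4 CPM in chow, 74.2 to 84.8 (median 78.6) CPM in HFHF controls and 90.5 to 145 (median 104) CPM in the gRNA group. The difference from HFHF controls was 0.44 (SE 0.08, adjusted p = 0.000107), the largest p of this role, and 0.36 without replicate 8.

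Uqcrc1 encodes a core protein on the matrix side and had the smallest p of this role. It was at 139, 138, 135, 119 and 123 CPM in chow, 103 to 117 (median 107) CPM in HFHF controls and 128 to 164 (median 142) CPM in the gRNA group. As with Sdha, HFHF controls lay below both other groups with no overlap. The gRNA difference was 0.43 (SE 0.06, adjusted p = 9.40e-06), or 0.43 without replicate 8, and the diet difference was -0.27 (SE 0.07, adjusted p = 0.00152). The other core protein gene, Uqcrc2, and the gene of the Rieske iron-sulfur protein, Uqcrfs1, differed between gRNA and HFHF controls by 0.46 and 0.39, or 0.41 and 0.34 without replicate 8.

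The 5 supernumerary subunits of complex III, small proteins that carry no redox centre, were less uniform. Of these, 3 rose in the gRNA group and 2 did not pass, and without replicate 8 only 2 passed. Uqcrb, the subunit next to the ubiquinone-reducing site, was at 116, 116, 119.7, 110.2 and 109 CPM in chow, 93.6 to 121 (median 109) CPM in HFHF controls and 123 to 224 (median 136) CPM in the gRNA group. The gRNA libraries lay above the HFHF controls by a narrow gap. The difference was 0.42 (SE 0.10, adjusted p = 0.00183) and 0.30 without replicate 8.

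Uqcrq had the largest p of these 5 genes. Its level was 104, 106, 105, 101 and 95.4 CPM in chow, 100.5 to 128 (median 114) CPM in HFHF controls and 94.5 to 196 (median 121) CPM in the gRNA group, and the 3 groups overlapped. Without replicate 8 the highest gRNA library was at 127 CPM, and the difference went from 0.12 (SE 0.11, adjusted p = 0.428) to -0.01. Uqcr11 was at 0.15, or 0.02 without that library, and did not pass either. Uqcrh, the acidic hinge protein near the cytochrome c docking site, rose by 0.36 (SE 0.09, adjusted p = 0.00265) and by 0.27 without replicate 8.

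Uqcr10 is the small subunit beside cytochrome c1. Its libraries were at 55.3, 57.5, 56.4, 50.7 and 54.6 CPM in chow, 57.6 to 76.1 (median 69.2) CPM in HFHF controls and 63.5 to 132 (median 79.1) CPM in the gRNA group. All HFHF controls lay just above all chow libraries, while gRNA and HFHF control libraries overlapped. The gRNA difference was 0.32 (SE 0.12, adjusted p = 0.0372), and without replicate 8 it was 0.18 with an adjusted p of 0.0727. The call was also lost when HFHF control replicate 1, 2, 4 or 7 or gRNA replicate 2, 4 or 6 was left out, with upper-quartile scaling, with no count filter and in a fit of the 2 groups alone (adjusted p from 0.0595 to 0.0832 in these 3 settings).

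Cycs encodes cytochrome c, the soluble carrier between complexes III and IV, which is also known as a trigger of apoptosis when it leaves the mitochondrion. It was at 122, 102, 125, 106 and 147 CPM in chow, 121 to 157 (median 144) CPM in HFHF controls and 146 to 216 (median 174) CPM in the gRNA group. Every pair of groups overlapped, and the order of the group means was chow, HFHF control, gRNA. The gRNA difference from HFHF controls was 0.31 (SE 0.09, adjusted p = 0.00613), or 0.26 without replicate 8. Cycs was the only member called higher with the diet, at 0.23 (SE 0.10, adjusted p = 0.0462), and that call was lost when chow replicate 2 or 4 or HFHF control replicate 2, 3, 6 or 7 was left out. Its transcript shares 845 stretches of 51 bases with Gm10053, a protein-coding copy at 61.2 CPM on average, and reads of that length cannot be placed on either gene alone. With the counts of both genes added together, the gRNA difference was 0.37 (adjusted p = 0.000816) and the diet difference was 0.20 (adjusted p = 0.0558).

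The catalytic head of complex V, F1, is built of alternating α and β subunits around a rotating stalk. Its large subunits rose, and the stalk subunits δ and ε did not pass. Atp5a1, the α subunit, was at 779.9, 775, 739.5, 706 and 687 CPM in chow, 565 to 697 (median 611) CPM in HFHF controls and 763 to 1039 (median 932) CPM in the gRNA group. The lowest gRNA library lay above the highest HFHF control, and the HFHF controls overlapped the chow libraries slightly. The difference of 0.58 (SE 0.07, adjusted p = 1.15e-06) was the largest among the 31 members, and without replicate 8 it was 0.55. The β subunit Atp5b, which carries the catalytic sites, and the central stalk subunit Atp5c1 rose by 0.43 and 0.52, or 0.41 and 0.45 without replicate 8.

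Atp5e encodes ε, the smallest subunit of the central stalk, and had the largest p of F1. It was at 70.2, 68.9, 70.8, 67.3 and 65.0 CPM in chow, 66.6 to 84.0 (median 74.4) CPM in HFHF controls and 63.9 to 127 (median 76.7) CPM in the gRNA group. The groups overlapped, and only replicate 8 lay above the HFHF controls. Its difference was 0.12 (SE 0.10, adjusted p = 0.384) with all libraries and -0.01 without replicate 8. The δ subunit Atp5d was at 0.17 (SE 0.08, adjusted p = 0.107), and at 0.09 without replicate 8.

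**Figure D3:**
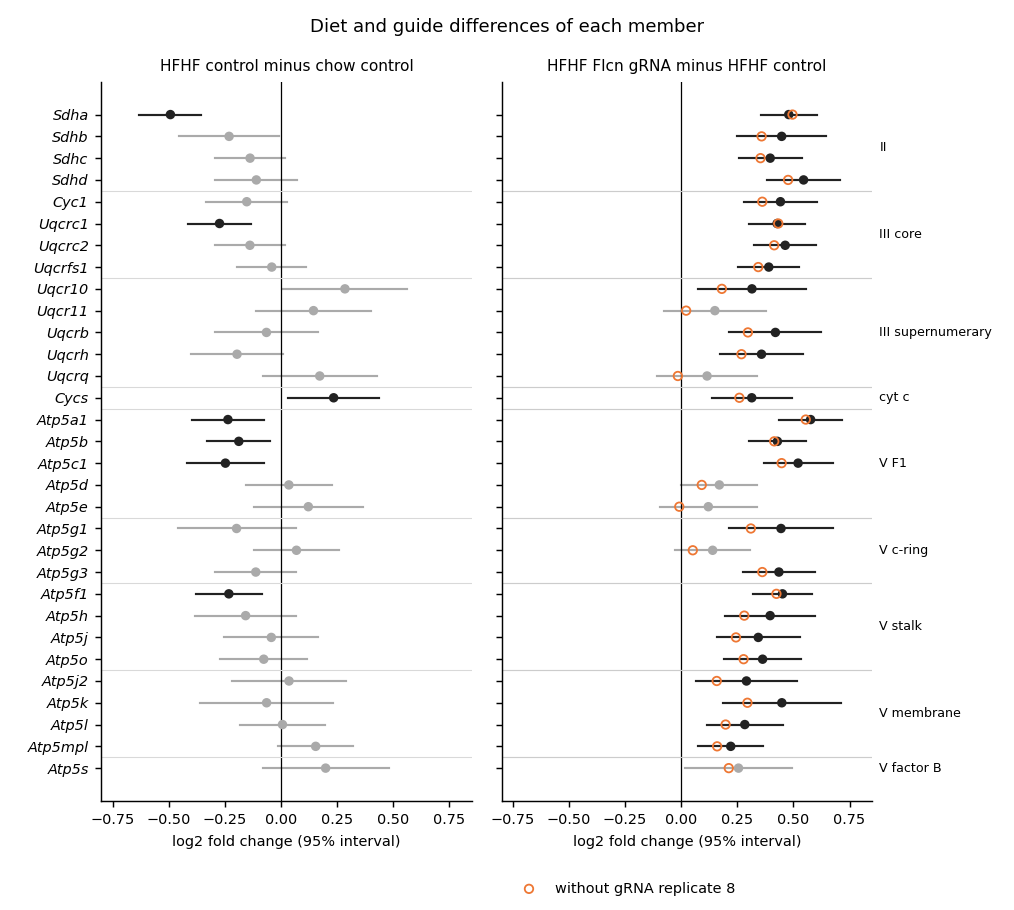
Log2 fold change of each tested member with its 95% interval for the diet comparison (left) and the gRNA comparison (right); black marks an adjusted p under 0.05, grey one above it, and open orange circles give the value without replicate 8 of the gRNA group. The gRNA values run from 0.12 to 0.58, all above 0, and the diet values from -0.49 to 0.28, with Sdha the lowest.

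The ring that protons turn is made of 1 small protein, subunit c, encoded by Atp5g1, Atp5g2 and Atp5g3. The genes differ in the targeting peptide that is cut off in the mitochondrion, and the mature protein is the same. Their promoters are shown because the 3 genes serve 1 subunit and did not give the same result. Each line gives the 250 bases before the RefSeq start of the gene on GRCm38.p6, from 5′ to 3′ on the minus strand, and capitals mark matches to the motifs named in the next paragraph.
Atp5g1, chr11:96075632-96075881: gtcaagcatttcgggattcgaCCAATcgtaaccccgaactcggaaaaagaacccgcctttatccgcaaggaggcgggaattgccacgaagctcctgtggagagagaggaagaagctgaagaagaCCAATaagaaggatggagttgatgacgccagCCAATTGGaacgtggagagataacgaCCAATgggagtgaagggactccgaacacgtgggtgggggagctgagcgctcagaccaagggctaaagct
Atp5g2, chr15:102671048-102671297: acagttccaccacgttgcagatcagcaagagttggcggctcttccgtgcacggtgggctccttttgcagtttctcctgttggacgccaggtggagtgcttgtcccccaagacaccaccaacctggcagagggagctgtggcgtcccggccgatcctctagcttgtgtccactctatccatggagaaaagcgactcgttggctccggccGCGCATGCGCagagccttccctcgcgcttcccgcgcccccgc
Atp5g3, chr2:73911327-73911576: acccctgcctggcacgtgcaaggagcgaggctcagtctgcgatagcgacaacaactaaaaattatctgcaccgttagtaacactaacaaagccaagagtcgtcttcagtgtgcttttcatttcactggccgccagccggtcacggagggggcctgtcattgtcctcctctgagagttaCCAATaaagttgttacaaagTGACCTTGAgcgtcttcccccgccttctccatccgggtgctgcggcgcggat

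Motifs were searched on both strands in the 300-base window from 250 bases before to 50 bases after each start. They were the palindromic NRF1 motif that stands in capitals in the line of Atp5g2, the estrogen-related receptor motif ERR (TCAAGGTCA), GABP (CCGGAAGT), YY1 (AAGATGGCG), the MiT/TFE motif CLEAR (TCACGTGA) and CCAAT, and none of the 6 contains another. The window of Atp5g1 held 5 CCAAT matches, 2 of which overlap on opposite strands. That of Atp5g2 held 1 NRF1 match at -42 and no CCAAT. Atp5g3 had an ERR match at -52, on the strand opposite to the gene, and a CCAAT at -72.

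Atp5g1 was at 73.5, 69.4, 72.1, 59.8 and 59.1 CPM in chow, 52.6 to 62.8 (median 59.8) CPM in HFHF controls and 63.6 to 126 (median 76.1) CPM in the gRNA group. Atp5g2 was at 56.3, 50.7, 51.2, 48.6 and 46.5 CPM in chow, 47.3 to 58.7 (median 53.1) CPM in HFHF controls and 49.0 to 80.9 (median 57.3) CPM in the gRNA group. Atp5g3 was at 248.8, 252, 257, 222 and 222 CPM in chow, 209 to 237 (median 222) CPM in HFHF controls and 254 to 395 (median 284) CPM in the gRNA group. For Atp5g1 and Atp5g3 the gRNA libraries lay above all HFHF controls, although for Atp5g1 the gap was under 1 CPM wide, and for Atp5g2 the groups overlapped.

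Atp5g3 rose by 0.44 (SE 0.08, adjusted p = 0.000123) and Atp5g1 by 0.44 (SE 0.11, adjusted p = 0.00341), or by 0.36 and 0.31 without replicate 8. Atp5g2 was at 0.14 (SE 0.08, adjusted p = 0.18) and 0.05 without replicate 8. Of the counts of the 3 genes, Atp5g3 held 67.2% ± 0.864 in chow, 66.7% ± 1.14 in HFHF controls and 68.7% ± 1.78 in the gRNA group. Atp5g2 held 14.2% ± 0.632 in chow, 15.9% ± 0.629 in HFHF controls and 13.4% ± 0.836 in the gRNA group (SD, n = 5, 7 and 8), and its HFHF control libraries (15.1% to 16.8%) overlapped the gRNA libraries (12.7% to 15.3%) at 1 end only. Replicate 8 was at 13.45% for Atp5g2. Every 51-base stretch of the Atp5g2 transcript and 65.8% of those of Atp5g1 also occur in processed pseudogenes, none of which is a row of the deposited table, whereas none of those of Atp5g3 do. Such sharing was not confined to the c-ring. Other gene models held 84.8% of the 51-base stretches of Atp5l, 50.1% of Atp5h, 49.7% of the tested Atp5o, 42.5% of Uqcrb and 24.8% of Uqcrc2. How the authors' counting divided such reads is not given in the sources at hand.

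**Figure D4:**
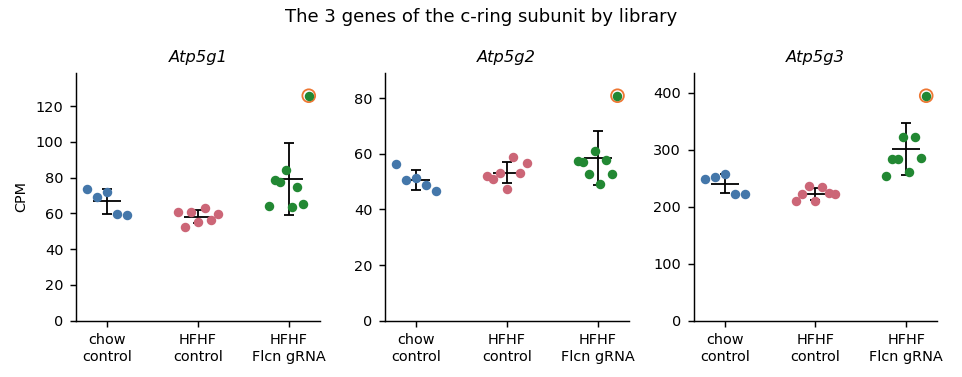
CPM of the 3 genes of subunit c (vertical axes, each with its own scale from 0) in each library, with the mean and SD as bars and replicate 8 of the gRNA group ringed. Atp5g1 (63.6 to 126 CPM) and Atp5g3 (254 to 395 CPM) lie above the HFHF controls in all gRNA libraries, while Atp5g2 (49.0 to 80.9 CPM) overlaps them.

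The peripheral stalk holds the head still while the ring turns, and its 4 tested genes rose. Atp5f1, the b subunit that spans the membrane, was at 269, 242, 254, 242 and 237 CPM in chow, 193 to 234 (median 210.1) CPM in HFHF controls and 248 to 319 (median 284) CPM in the gRNA group. HFHF controls lay below both other groups with no overlap. The gRNA difference was 0.45 (SE 0.06, adjusted p = 7.90e-06), or 0.42 without replicate 8, and the diet difference was -0.23 (SE 0.07, adjusted p = 0.00743). Part of its transcript, 38.3% of the 51-base stretches, is shared with other gene models, among them the overlapping gene Wdr77 at 22 CPM.

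Atp5j encodes coupling factor F6 and had the largest p of the stalk. It was at 132, 134, 133, 127 and 125 CPM in chow, 112 to 143 (median 120.4) CPM in HFHF controls and 135 to 229 (median 153) CPM in the gRNA group, with overlap between the gRNA and HFHF control libraries. Its difference was 0.34 (SE 0.09, adjusted p = 0.00404) and 0.24 without replicate 8. It shares 84 stretches of 51 bases with Gabpa, the neighbouring gene, at 45.7 CPM. Atp5h and Atp5o, the d subunit and the oligomycin-sensitivity protein, rose by 0.40 and 0.36, or 0.28 and 0.28 without replicate 8.

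The 4 membrane subunits of complex V named by the rule help dimers of the enzyme to form and all rose, with overlap between the gRNA and HFHF control libraries for each. Atp5k, subunit e, was at 65.7, 66.2, 77.9, 61.5 and 64.8 CPM in chow, 54.0 to 76.6 (median 64.0) CPM in HFHF controls and 69.0 to 147 (median 81.0) CPM in the gRNA group. Its difference was 0.45 (SE 0.13, adjusted p = 0.00772) and 0.30 without replicate 8, which was 1.89 times the median of the other 7 gRNA libraries. Atp5j2, subunit f, was at 119.7, 112, 115, 107 and 106 CPM in chow, 101 to 129 (median 111) CPM in HFHF controls and 112 to 221 (median 128) CPM in the gRNA group. With a difference of 0.29 (SE 0.11, adjusted p = 0.0376) it lost its call without replicate 8 (0.16, adjusted p = 0.0725), when HFHF control replicate 1, 2, 4 or 7 or gRNA replicate 2 or 4 was left out, and with upper-quartile scaling, no count filter or a fit of the 2 groups alone. Subunit g, Atp5l, and the small proteolipid gene Atp5mpl rose by 0.28 and 0.22, or 0.20 and 0.16 without replicate 8, and with upper-quartile scaling Atp5mpl had an adjusted p of 0.0728.

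Atp5s, which encodes factor B and not a structural subunit, was far lower in level than the other members. It was at 5.001, 4.51, 4.62, 4.68 and 4.51 CPM in chow, 4.80 to 6.52 (median 5.05) CPM in HFHF controls and 4.82 to 8.37 (median 6.15) CPM in the gRNA group. All groups overlapped, and the gRNA difference of 0.26 (SE 0.12) had an adjusted p of 0.0845, and without replicate 8 it was 0.21. A complex V subunit whose symbol in this annotation, Usmg5, lies outside the rule was at 0.26 (SE 0.11, adjusted p = 0.0679), or 0.13 without replicate 8.

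Per kilobase of the principal transcript, the subunit genes in HFHF controls ran from 36.6 CPM per kilobase for Sdhc to 383 for Atp5b. Next below Atp5b were Atp5g3 at 312, Uqcrq at 284 and Atp5a1 at 253 CPM per kilobase. Cycs, at 45.3, and Cyc1, at 52.3 CPM per kilobase, were close to Sdhc at the low end. In all 3 groups Atp5b and Atp5g3 were the 2 highest members and Atp5s and Sdhc were among the 3 lowest.

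In HFHF controls, 6 members were lower than in chow and 1 was higher, where 28.9% of all genes tested were called lower and 28.1% higher. The share of members called lower, 19.4%, was thus under the share of all genes. The 6 were Sdha and Uqcrc1, with the values given above, and Atp5c1, Atp5a1, Atp5f1 and Atp5b of complex V, at -0.25, -0.24, -0.23 and -0.19. Of these, 5 had no overlap between HFHF control and chow libraries, as did 18.1% of all genes in that direction. The largest positive value was that of Uqcr10, at 0.28 (SE 0.13, adjusted p = 0.0742), which did not pass although its libraries did not overlap, as those of 18.8% of all genes did not in that direction. The median of the members was -0.08, against -0.01 over all genes.

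Without a count filter 3 members were called lower, Sdha, Uqcrc1 and Atp5f1. With upper-quartile scaling 2 members were called lower and 3 higher, and in a fit of the 2 groups alone 10 were called lower and 4 higher. Of all genes, 7942 of 22795 were called without the filter and 7610 of 13667 with upper-quartile scaling, 56.3% and 60.7% of them higher. The fit of the 2 groups called 7861 of 13382 genes, 50.4% of them higher. With 1 library left out, 2 to 6 members were called lower and 0 to 1 higher, with 2 lower without chow replicate 1 and 3 without chow replicate 2. Those fits called 7204 to 7614 genes in either direction. The call of Atp5b was lost without any of the 5 chow libraries or HFHF control replicate 5, those of Atp5a1 and Atp5c1 without chow replicate 1 or 2, and that of Atp5f1 without chow replicate 1. Upper-quartile scaling moved the diet median over all genes from -0.01 to 0.08, and with it 5 members that did not pass, Uqcrfs1, Uqcrb, Atp5k, Atp5j and Atp5o, went from below 0 to above it.

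Against chow, the gRNA group had 20 members called higher and 0 lower, where 20.9% of all genes were called higher and 21.7% lower, and DESeq2 called 23 higher and 0 lower. Without replicate 8 these counts were 22 and 0, where 22.1% of all genes were called higher and 19.2% lower. The median of the members was 0.29, or 0.23 without replicate 8, against 0.00 over all genes. Uqcr10 had the largest difference, 0.60 (SE 0.13, adjusted p = 0.000988), followed by Cycs at 0.55 (SE 0.10, adjusted p = 0.000104), and without replicate 8 they were at 0.50 and 0.53. In complex II only Sdhc and Sdhd were called higher than in chow, at 0.26 and 0.44, or 0.25 and 0.40 without replicate 8, while Sdhb was at 0.22 (adjusted p = 0.101), or 0.16. Of the 31 members, 6 had no overlap above the chow libraries, as did 9.01% of all genes. This comparison shares the gRNA libraries with the comparison to HFHF controls and the chow libraries with the diet comparison, so the 3 are not independent.

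Among the members, values went with transcript length. The 17 members with a principal transcript under 1000 bases, a limit set after the values were seen, had a median gRNA difference of 0.32, which was 0.20 without replicate 8, and a median diet difference of 0.01. For the 14 longer members these medians were 0.44, 0.41 and -0.17. Of the longer members 13 of 14 rose in the gRNA group with and without replicate 8, and of the shorter ones 12 and 10 of 17 did. Of all genes tested, whatever their length, 19.6% were called higher with replicate 8 and 18.6% without it. All 6 members called lower with the diet were among the longer 14 (42.9% of them, beside 28.9% of all genes tested). Spearman's rho over the 31 members, which share libraries and are no independent points, was 0.53 between length and the gRNA difference, 0.69 without replicate 8, and -0.50 for the diet difference.

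Replicate 8 was at a median of 1.62 times the median of the other 7 gRNA libraries over the shorter members and 1.22 times over the longer ones, from 0.86 for Sdha to 1.89 for Atp5k. Over all nuclear protein-coding genes tested, it was at 1.24 times for 851 genes with transcripts under 1000 bases and at 0.98 times for 11931 longer genes. The part of transcript length in the differences between the groups was not tested. For all genes under 1000 bases the median difference was -0.04 in the gRNA comparison and 0.15 in the diet comparison, and for longer genes 0.01 and -0.02.

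**Figure D5:**
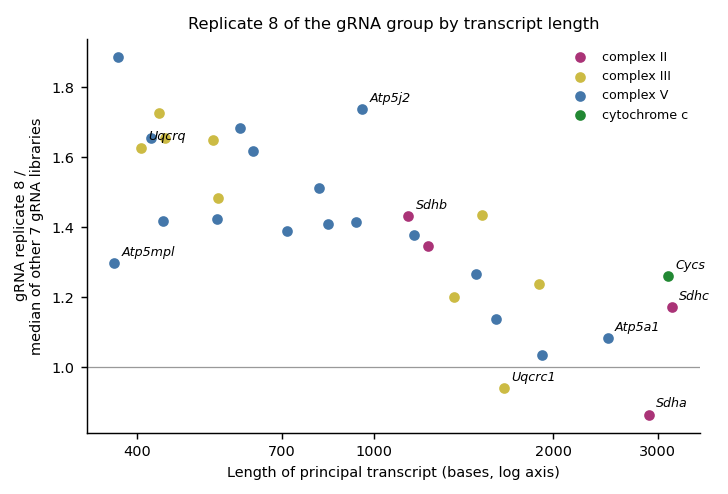
Level in replicate 8 of the gRNA group divided by the median of the other 7 gRNA libraries (vertical axis) against the length of the principal transcript in bases (log axis) for the 31 tested members, coloured by complex. The ratio falls from 1.89 for Atp5k, one of the shortest, to 0.86 for Sdha, one of the longest.

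Complexes III and V each hold subunits encoded in mitochondrial DNA, and these rose too. Cytochrome b, mt-Cytb, rose by 0.57 (SE 0.13, adjusted p = 0.00109), and the ATP synthase subunit genes mt-Atp6 and mt-Atp8 rose by 0.54 (SE 0.12, adjusted p = 0.00118) and 0.58 (SE 0.12, adjusted p = 0.000487). For these 3 genes the gRNA and HFHF control libraries did not overlap, which held for 5.04% of all genes in that direction. mt-Cytb was at 30059 CPM in replicate 8, and the group's median was 17126 CPM. Without that library the 3 differences were 0.43, 0.41 and 0.45. None of the 3 passed in the diet comparison.

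Of the genes that serve the complexes without being part of them, the inhibitor of complex V went the other way. Atpif1 encodes the protein that blocks ATP hydrolysis when the proton gradient collapses. It was at 6.69 to 7.94 CPM in chow (median 7.58), 10.9 to 14.5 CPM in HFHF controls (median 12.0) and 7.39 to 10.6 CPM in the gRNA group (median 9.16). HFHF controls lay above both other groups with no overlap. It fell by 0.48 in the gRNA group (SE 0.08, adjusted p = 0.000113), or by 0.52 without replicate 8, and was higher by 0.73 with the diet (SE 0.10, adjusted p = 2.02e-06).

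Of the assembly factors of complex II, 1 of 4 rose (Sdhaf2, which attaches the flavin to Sdha, at 0.16), for complex III 2 of 6 (Uqcc1 at 0.38 and Lyrm7 at 0.53), and for complex V 5 of 6, and 0 of the 16 fell. Among all genes tested, 19.6% were called higher and 19% lower. With so few genes, the counts for complexes II and III cannot be told from that share. Atpaf1, the chaperone of the β subunit, rose by 0.32 (SE 0.06, adjusted p = 0.000125), Fmc1 by 0.39 (SE 0.12, adjusted p = 0.0129), Oxa1l by 0.22 (SE 0.07, adjusted p = 0.0139) and Tmem70, which helps the c-ring to form, by 0.16 (SE 0.06, adjusted p = 0.0305). Without replicate 8, 1 of 4, 2 of 6 and 3 of 6 were called higher and 0 lower, where 18.6% of all genes were called higher and 20.1% lower. In that fit the values of Sdhaf2, Uqcc1, Lyrm7, Atpaf1, Fmc1 and Oxa1l were 0.13, 0.34, 0.50, 0.29, 0.26 and 0.17. The calls of Tmem70 (adjusted p = 0.0585) and Atpaf2 (adjusted p = 0.117) were lost there, that of Tmem70 also in 7 other fits that left out 1 library. Oxa1l and Tmem70 did not pass with upper-quartile scaling (adjusted p = 0.0611 and 0.158). Nor did Tmem70 pass with no count filter or in a fit of the 2 groups alone (adjusted p = 0.0634 and 0.0633). Sdhaf2 lost its call with upper-quartile scaling, with no count filter and without HFHF control replicate 5.

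Carriers bring ADP and phosphate to complex V and take ATP away. Slc25a5, an ADP/ATP carrier, rose by 0.69 in the gRNA group (SE 0.09, adjusted p = 3.60e-06), from 286 to 312 CPM in HFHF controls to 374 to 616 CPM with no overlap, and by 0.63 without replicate 8. The phosphate carrier Slc25a3 rose by 0.26 (SE 0.07, adjusted p = 0.00515), or by 0.19 without replicate 8. The second ADP/ATP carrier, Slc25a4, was at 0.30 (SE 0.13, adjusted p = 0.0767) in this comparison, or 0.31 without replicate 8, and was higher by 1.59 with the diet (SE 0.17, adjusted p = 9.24e-08), from 2.95 ± 0.427 CPM in chow to 8.87 ± 1.67 CPM in HFHF controls.

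Of 9 measured enzymes that pass electrons to ubiquinone beside complex II, 6 rose in the gRNA group and 0 fell, with the same counts without replicate 8. For this list and the next, the shares of all genes tested were 19.6% called higher and 19% lower. Prodh, which oxidises proline, rose by 0.93 (SE 0.15, adjusted p = 5.65e-05), and the electron-transfer flavoprotein genes of fatty acid oxidation Etfdh, Etfa and Etfb rose by 0.42, 0.37 and 0.31. Without replicate 8 these 4 values were 0.85, 0.42, 0.33 and 0.24. Under the diet 8 of the 9 were lower than in chow, where 28.9% of all genes were called lower and 28.1% higher. The other 1, the glycerol-3-phosphate dehydrogenase Gpd2, was higher at 0.97. For ubiquinone synthesis 7 of 13 genes rose in the gRNA group, with Coq9 at 0.45, Coq10a at 0.38, Coq8a at 0.69 and Coq5 at 0.34, and 0 fell. Without replicate 8 the counts were the same, and these 4 values were 0.42, 0.32, 0.67 and 0.27. Coq8a was at 373 ± 93.0 CPM in chow, 152 ± 21.6 in HFHF controls and 245 ± 49.7 in the gRNA group.

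Hccs, which attaches heme to cytochromes c and c1, rose by 0.28, and Cox10 and Cox15, which make the heme a of complex IV, rose by 0.32 and 0.16. Without replicate 8 the values of Hccs and Cox15 were 0.26 and 0.16, and the call of Cox10 was lost (0.21, adjusted p = 0.107). The calls of Cox10 and Cox15 were lost in 7 and 5 of the 15 fits that left out 1 library, and with upper-quartile scaling. That of Cox15 was also lost with no count filter (adjusted p = 0.0622) and that of Cox10 in a fit of the 2 groups alone (adjusted p = 0.0526). Of 6 measured genes of cristae, the membrane folds that hold rows of ATP synthase dimers, 4 rose, where 19.6% of all genes tested did. Opa1 rose by 0.43 (SE 0.05, adjusted p = 5.31e-07), Immt by 0.41, Chchd3 by 0.41 and Apoo by 0.52, and without replicate 8 these 4 calls were kept, at 0.43, 0.38, 0.35 and 0.43. Opa1, a fusion protein that keeps cristae tight, was also lower with the diet, at -0.40.

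Among 12 measured regulators of respiratory genes, 6 rose in the gRNA group, 0 fell and 6 did not pass, with the same counts without replicate 8. The shares of all genes tested were 19.6% called higher and 19% lower. Ppargc1a, the coactivator known for driving mitochondrial biogenesis, was at 14.4 to 34.9 CPM in the gRNA group (median 20.2), with the highest value in replicate 8, and at 5.003 to 10.95 CPM in HFHF controls (median 8.504), with no overlap. It rose by 1.37 (SE 0.20, adjusted p = 2.79e-05), or by 1.23 without replicate 8. Esrrg and Esrra, the estrogen-related receptors γ and α, rose by 1.07 (SE 0.22, adjusted p = 0.000479) and 0.42 (SE 0.10, adjusted p = 0.00247). Ppara, the fatty acid receptor, rose by 0.79, Gabpa by 0.39 and Tfam, which coats mitochondrial DNA, by 0.22. Without replicate 8 Esrrg, Esrra, Ppara, Gabpa and Tfam were at 1.07, 0.39, 0.82, 0.42 and 0.20. The values that did not pass were 0.44 for Ppargc1b, 0.14 for Gabpb1, 0.09 for Yy1, -0.07 for Esrrb, -0.17 for Nrf1 and -0.36 for Pprc1. With the diet, Esrrg, Gabpa, Gabpb1, Yy1 and Tfam were lower, at -1.46, -0.60, -0.37, -0.21 and -0.23, and Ppargc1b was higher at 0.56. In that comparison 28.9% of all genes were called lower and 28.1% higher.

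RefSeq promoter windows were found for 24 of the 31 tested members under their own symbol or, for Atp5f1 and Atp5s, as Atp5pb and Dmac2l. An NRF1 match lay in those of Uqcrc1, Atp5g2 and Atp5k, which is 12.5% of the 24, against 0.962% of 27025 RefSeq promoter windows. For members and for all genes alike, 1 window per gene was used, the one of lowest coordinate. The windows of all genes were not limited by gene type or level, whereas the members are protein-coding genes with enough counts to be tested. The percentages therefore compare unlike sets. ERR matches lay in Sdhd and Atp5g3 (8.33% against 0.407%), GABP matches in Uqcr11, Uqcrh and Atp5h (12.5% against 3.93%) and YY1 matches in Atp5j2 and Atp5j (8.33% against 1.49%), and a second window of Atp5j held none. CCAAT was in 14 of the 24 (58.3% against 37.8%), and CLEAR in none (0.962% of all windows). Of the members with a match, 2 of 3 with NRF1, 2 of 2 with ERR, 2 of 3 with GABP, 2 of 2 with YY1 and 12 of 14 with CCAAT rose in the gRNA group, beside 19 of the 24 with a window. Without replicate 8 these counts were 2, 2, 2, 1 and 10, beside 17 of the 24. Of all genes tested, whatever their motifs, 19.6% were called higher with replicate 8 and 18.6% without it. Sets of 2 or 3 members are too small to be told from the 24. A match of letters is no measure of binding.

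Markers of other cells differed between the groups as well. The 10 hepatocyte markers summed to 74787 to 101505 CPM in chow, 42949 to 66412 CPM in HFHF controls and 50612 to 84158 CPM in the gRNA group, and none was listed at 0. The 10 stellate cell markers summed to 199 to 251, 657 to 950.1 and 258 to 404 CPM in the same order, and the 8 markers of monocyte-derived macrophages to 54.8 to 87.4, 234 to 559 and 155 to 332 CPM. Of the hepatocyte markers 4 of 10 were higher and 0 lower in the gRNA group than in HFHF controls, and 9 of 10 were lower and 0 higher with the diet. Over all genes tested, 19.6% were called higher and 19% lower in the gRNA comparison, and 28.1% and 28.9% in the diet comparison. Of the stellate markers 0 were higher and 8 lower in the gRNA group, and of the macrophage markers 0 and 6. The counts of the hepatocyte, stellate and macrophage lists were the same without replicate 8. Other lists went in different directions. Of 6 endothelial markers 3 were higher and 0 lower, of 6 Kupffer cell markers 3 and 1, and of 7 lymphocyte markers 3 and 4, with or without replicate 8. Of 4 cholangiocyte markers 0 were higher and 4 lower, or 3 lower without replicate 8. Both measured brown adipocyte markers were lower, with or without replicate 8. The part of cell makeup in the differences of the respiratory genes was not tested.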

How the data were processed

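The authors' deposited table held expected counts per gene in 20 liver libraries, values that need not be whole. The build was GRCm38, per the submitters' processing notes. Per the labels' protocols, libraries were made from mRNA with adapters that carry molecular identifiers and sequenced single-end for 51 cycles. The aligner, the counting rule, its use of strand and whether identifiers were collapsed are not stated in the labels. A further column that matched no label was not used (1 column), and 22 construct features with 7.00 counts in all were left out.

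Symbols came from GENCODE M21. Expected counts were rounded, filtered with filterByExpr (13667 genes kept), scaled with TMM and fitted in 1 quasi-likelihood model of the 3 groups with 17 residual degrees of freedom (edgeR 4.0.16, R 4.3.3), which gave the log2 fold changes and Benjamini-Hochberg adjusted p-values. The procedure was also run on simulated counts, drawn for each gene and library on their own. No simulated library stood apart, so that run does not show how the procedure handles gRNA replicate 8. Alternatives were upper-quartile and median-of-ratios factors, no count filter, DESeq2 1.42.0, only the 2 groups compared, and each library left out in turn. The addition of Gm10053 counts to those of Cycs was chosen after seeing the data. Members, gene lists and the rule for naming genes were chosen with earlier results of these data known. Library values were given for all Sdh genes, Cyc1, Cycs, the c-ring genes, the members of smallest and largest p of each role and the largest diet differences, and other lists name up to 4 genes of smallest p and all measured regulators. Transcript lengths are those of the principal GENCODE transcript. Promoters came from RefSeq (GRCm38.p6). No proteins were analysed here.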

Additional observations from a re-analysis of the deposited data

Results flagged for a closer look

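Replicate 8 of the gRNA group lay far above the other 7 libraries of its group for 15 members, by a gap that exceeded Dixon's 95% critical value. In complex II this was Sdhb at 225.8 CPM. In complex III these were Cyc1 at 145.3, Uqcr10 at 132.1, Uqcr11 at 148.3, Uqcrb at 223.7 and Uqcrq at 195.5 CPM, and the sum over the complex at 1681 CPM. In complex V these were Atp5c1 at 326.4, Atp5e at 126.9, Atp5g1 at 125.8, Atp5g2 at 80.88, Atp5j2 at 221.2, Atp5k at 146.7, Atp5l at 227.1, Atp5h at 260.5 and Atp5j at 229.1 CPM. The sum over the 37 mitochondrially encoded genes was flagged by the same gap, at 288924 CPM.

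In the chow group, Uqcrh of replicate 1 at 155.8 CPM and Atp5k of replicate 3 at 77.86 CPM stood above the other 4 libraries by the same measure. In all, 111 groups of values were examined and 19 stood out, 17 of them through replicate 8 of the gRNA group. Chance flags about 1 in 20 such groups, and groups of values that share a library are not independent.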

How the results depend on the processing

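No paired analysis was possible because the labels give no replicate numbers, and the numbers used here follow accession order. In the gRNA comparison 23 to 26 members were called higher and 0 lower with 1 library left out, with a median of 0.30 to 0.42, and none of the counts or medians of this comparison moved by over 1.5 times or beyond the spread under any alternative run. The fits with 1 library left out called 4632 to 5287 genes in either direction. Without gRNA replicate 8, Uqcrq was at -0.0148 and Atp5e at -0.0085, and with any other library left out they reached up to 0.1563 and 0.1640. In the diet comparison members called higher and lower, 1 and 6, were 3 and 2 with upper-quartile factors and 4 and 10 with only the 2 groups compared, and 3 were lower with no count filter. Over all genes, these 3 settings called 7610 of 13667, 7861 of 13382 and 7942 of 22795, with 60.7%, 50.4% and 56.3% of calls higher. Upper-quartile factors moved the diet median over all genes from -0.0104 to 0.0821, and with it the diet values of Uqcrfs1 to 0.0512, Uqcrb to 0.0279, Atp5k to 0.0286, Atp5j to 0.0496 and Atp5o to 0.0161, and the share of calls that were higher to 37.8% (from 50.7%) in the gRNA, 60.7% (from 49.4%) in the diet and 55.6% (from 49.1%) in the gRNA against chow comparison. Sdha of the gRNA group against chow, at -0.0136, was at 0.0217 with upper-quartile factors, 0.0180 with no count filter and 0.0028 with only the 2 groups compared. With 1 library left out it ran from -0.0298 to 0.0360, and the diet values of Uqcrfs1 from -0.0543 to 0.0152, Atp5k from -0.0825 to 0.0262 and Atp5l from -0.0201 to 0.0601, while 2 to 6 members were called lower and 0 to 1 higher. The cause of the other changes was not tested. Per kilobase, the c-ring shares in HFHF controls were 18.43% for Atp5g1, 22.74% for Atp5g2 and 58.83% for Atp5g3. Against chow, 18 to 29 members were called higher in the gRNA group with 1 library left out, in fits that called 5152 to 5921 genes in either direction. The calls of Atp5j2 and Atp5k were lost without chow replicate 4 or 5. The call of Atp5j2 was also lost without gRNA replicate 4, and both were lost with only the 2 groups compared (adjusted p = 0.055 and 0.0537). Atp5s, at a median of 5.05 CPM in HFHF controls, was the tested member of lowest level and rests on the fewest counts.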
